A study of Mus musculus with 4 samples.

Results

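The genes described are 9 genes of glycogen metabolism: the glycogen synthases Gys1 and Gys2, the branching enzyme Gbe1, the UDP-glucose-forming enzyme Ugp2, the glycogen phosphorylases Pygl and Pygb, the phosphorylase kinase subunit Phka2, and the glycogen-targeting phosphatase subunits Ppp1r3b and Ppp1r3c. They were chosen by name, with older aliases accepted, and all 9 had probes on the arrays: 16 of 41174 probes, and 9 of the 16451 genes tested. The cells, from mice of strain C57BL/6, were induced hepatocyte-like (iHep) cells made from what the labels call MDFs. They were grown in 2D or in 3D culture in separate experiments, iHep-1 and iHep-2. Each culture was hybridised once per experiment, which made 2 arrays per culture and 4 in all. The study set 3D against 2D culture. The names of both 2D samples carry a plus sign; no source used here says what it marks, and it cannot be told apart from culture.

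Glycogen is the branched glucose polymer in which liver and muscle store sugar. Glucose 6-phosphate is converted to glucose 1-phosphate and then to UDP-glucose, glycogen synthase adds its glucose to a growing chain, and the branching enzyme makes the branch points. Glycogen phosphorylase, switched on by phosphorylase kinase, releases glucose 1-phosphate again, while protein phosphatase 1, held on the glycogen particle by targeting subunits, activates the synthase and switches the phosphorylase off. Liver uses its own synthase (Gys2) and phosphorylase (Pygl) and sends free glucose to the blood, whereas most other tissues use Gys1 together with Pygm in muscle or Pygb in brain.

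The first 30 bases of 6 probes, as the array files list them, are shown because each isoform was read by its own probe. The probes are 60 bases long and the positions are those of the whole probe in build mm9.
Gys2, chr6:142371206-142371265, minus strand: tctagaatttgtatccagatcattgatagg
Gys1, chr7:52710946-52711005, plus strand: ttgcaggatgcattctttgtgcactgatct
Pygl, chr12:71291855-71291914, minus strand: cttccctgattctgtttttgtcattgaata
Pygb, chr2:150656541-150656600, plus strand: cctgaaatcctgcacgtagctgagtgagct
Ppp1r3b, chr8:36450221-36450280, plus strand: cgggagctgcatttagaaactctatgcatt
Ppp1r3c, chr19:36806457-36806516, minus strand: gtagatatgaattattttgaatgtgaactg
No letters are in capitals because no stretch was singled out. At the best ungapped alignment the full Gys1 and Gys2 probes shared 23 of 60 bases and the Ppp1r3b and Ppp1r3c probes shared 25 of 60. Over all 120 pairs of the 16 probes, this number lay between 19 and 28. Exon and UTR annotation of mm9 was not used here, so the position of each probe within its transcript is not stated.

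Signals well above background were found for 23061 to 24413 probes per array. Of the hepatocyte markers, 8 of 9 listed genes had values (Serpina1a was not analysed here), and all 8, albumin among them, were well above background on all 4 arrays. Their summed signal, in multiples of each array's 75th percentile, was 1357 (2D) and 1079 (3D) in iHep-1 and 1183 (2D) and 2280 (3D) in iHep-2. Of 7 skeletal muscle markers, Myod1, Myog, Ckm and Mb were not well above background on any array, and the 7 together summed to between 0.0775 and 0.323. Of 7 fibroblast markers, 4 to 6 were well above background, with sums of 20.2, 36.9, 67.4 and 26.3 in the same order of arrays. The 4 biliary markers were well above background on every array, with sums of 4.94, 13.3, 32.7 and 28.0. Pecam1 and Kdr of endothelium and Ptprc of blood cells were not well above background on any array.

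Of the 9 glycogen genes, Gys2 differed most between 3D and 2D culture, and none passed the test for culture. With each array scaled to its 75th percentile, 6 of the 9 genes stood higher in 3D in both experiments (Gys2, Gbe1, Ugp2, Pygl, Phka2 and Ppp1r3c), against 33.3% of all genes tested. With arrays scaled to spike-in controls instead, 1 of 9, Gys2, was higher in both. That scaling moved the median difference of all genes to -1.08, and no share of all genes was worked out for it. Reading each gene by the mean of its kept probes gave 5 of 9, also without a share of all genes. At the 75th percentile scaling, by the probe used, none was lower in both experiments, against 32.8% of all genes. Gys1, Pygb and Ppp1r3b differed in opposite directions, against 33.8%. In the 6 genes named above, both 3D arrays lay above both 2D arrays, against 20% of all genes. The gap was 0.02 for Ugp2 and 0.05 for Pygl. In 0 of 9 both 3D arrays lay below, against 21.5%. Gys2 and Ppp1r3c exceeded 2-fold in both experiments, against 4.26% of all genes, and 0 of 9 were at least 2-fold lower, against 2.12%. The first count was 1 with normexp background correction and 0 with spike-in scaling, for which no shares of all genes were worked out.

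The median difference of the 9 genes, 3D minus 2D on the log2 scale, was 0.05 in iHep-1 and 1.29 in iHep-2, and 0.64 for the mean of both. The last was 1.15 without the 2D array of iHep-1 and 0.38 without that of iHep-2. Over all tested genes the 3 medians were -0.02, 0.04 and 0.02. Spike-in scaling moved the median of all genes to -1.08 and that of the 9 genes to -0.46; it moves all genes of an array by 1 constant, so the distance between these medians, 0.62, is fixed by construction. In limma, none of the 9 genes passed an adjusted p of 0.05, with values of 0.684 to 0.934, and 0 of all 16451 genes did (0%). At an unadjusted p under 0.05, 1159 genes passed, 1 of the 9 (Gbe1) among them. With experiment as a block, 2175 genes passed that unadjusted threshold, 2 of the 9 (Gbe1 and Ppp1r3c) among them. At an adjusted p of 0.05, 0 of all genes did so in that fit. In cell cultures read as a whole, fewer cells of a type and less RNA per cell cannot be told apart.

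**Figure D1:**
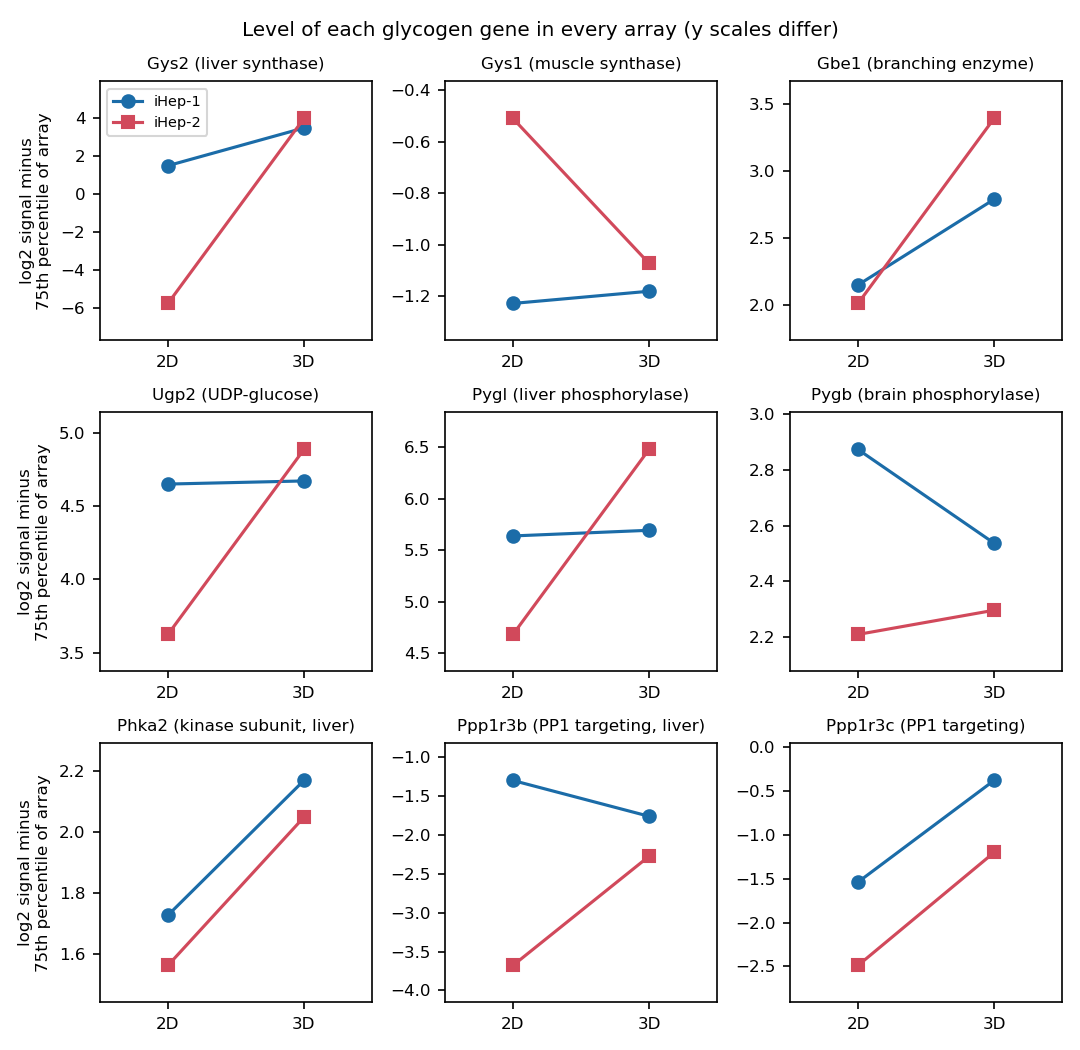
Scaled log2 signal (log2 signal minus the array's 75th percentile; y axes differ) of the 9 glycogen genes in 2D and 3D culture, 1 array per point, with circles and blue lines for iHep-1 and squares and red lines for iHep-2. Gys2 of iHep-2 in 2D, at -5.75, lies far below its other 3 arrays, and Gys1, Pygb and Ppp1r3b have lines of opposite slope; with spike-in scaling the means of Gbe1, Ugp2, Pygl, Phka2 and Ppp1r3b were lower in 3D.

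Among the enzymes of synthesis, Gys2, the liver synthase and the enzyme that sets the rate of glycogen deposition in hepatocytes, had scaled log2 levels of 1.49 (2D) and 3.47 (3D) in iHep-1 and -5.75 (2D) and 3.97 (3D) in iHep-2. The processed signals behind these levels were 1475, 6609, 11.4 and 6261 intensity units. Both 3D arrays were high and close to each other, the 2D array of iHep-1 was intermediate and that of iHep-2 was near the lower end of what was measured, since the lowest signal well above background on that array was 8.25 units. The groups did not overlap.

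Gys2 was thus 3.95-fold higher in 3D in iHep-1 and 846-fold higher in iHep-2. The mean difference was 5.85 (SE 2.72, limma, n = 2 per culture, adjusted p = 0.696). It was 2.23 without the 2D array of iHep-2 and 9.48 without that of iHep-1. With normexp background correction, which lifts dim signals, it was 4.56. Spike-in scaling gave 4.75 and a limma adjusted p of 0.000256, the single setting in which the gene passed. In that setting limma estimated an infinite prior, so that all genes shared 1 pooled spread, and its p is not comparable with those of the other settings. In 2D, where the arrays parted, Gys2 was 152-fold higher in iHep-1 than in iHep-2, and in 3D it was 1.41-fold higher in iHep-2. The fibroblast markers had their highest sum and the biliary markers theirs on the same 2D array of iHep-2. Among the fibroblast markers, Vim (scaled log2 level 5.86) and Acta2 (2.21) were highest there. Col1a2 (-3.67) was at its lowest there, and Pdgfra (2.25) was below both 3D arrays. Krt7 and Krt19 were highest there, but Sox9 and Epcam on the 3D array of iHep-2. By the probes used, 5 of the 8 hepatocyte markers (Alb, Apoa1, Hnf4a, Tat and Ttr) were at their lowest on that 2D array. Afp (8.24) was at its highest there, Cps1 (3.09) was above both iHep-1 arrays, and Trf (7.81) was above the 3D array of iHep-1. The other Hnf4a probes were higher on the 2D array of iHep-2 (0.22 and -4.23) than on either iHep-1 array. Without the fetal marker Afp, left out after its values were seen, the hepatocyte sum was 882 on that array and 1211, 1077 and 2022 on the 2D and 3D arrays of iHep-1 and the 3D array of iHep-2. With Afp the sum was 1183 on the 2D array of iHep-2, above the 1079 on the 3D array of iHep-1. The part of these markers in the Gys2 difference was not tested.

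Gys1, the synthase of muscle and most other tissues, differed less. Its scaled log2 level was -1.23 (2D) and -1.18 (3D) in iHep-1 and -0.51 (2D) and -1.07 (3D) in iHep-2. The 2D array of iHep-2 stood above the other 3, so the groups overlapped. Averaged over the experiments, 3D differed from 2D by -0.26 (SE 0.34, limma, n = 2 per culture, adjusted p = 0.858). It was 0.10 without the 2D array of iHep-2 and -0.62 without that of iHep-1. On the former array Gys1 was thus at its highest and Gys2 at its lowest of the 4; levels of different probes were not set against each other.

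Gbe1, which moves a stretch of chain to a new branch point, had scaled log2 levels of 2.15 (2D) and 2.79 (3D) in iHep-1 and 2.02 (2D) and 3.39 (3D) in iHep-2. The 2D arrays were close to each other, and both 3D arrays lay above them. It was 1.56-fold higher in 3D in iHep-1 and 2.60-fold in iHep-2. The mean difference was 1.01 (SE 0.31, limma, n = 2 per culture, adjusted p = 0.684) and was -0.094 with spike-in scaling.

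Ugp2, which makes the UDP-glucose that the synthase uses, stood at 4.65 (2D) and 4.67 (3D) in iHep-1 and 3.62 (2D) and 4.89 (3D) in iHep-2. Its iHep-1 arrays were almost level and the 2D array of iHep-2 was the low one, so that the groups were parted by 0.02 only. On average, 3D stood above 2D by 0.64 (SE 0.44, limma, n = 2 per culture, adjusted p = 0.745). It was 0.13 without the 2D array of iHep-2, 1.15 without that of iHep-1, and -0.46 with spike-in scaling.

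Among the genes of breakdown, Pygl, the liver phosphorylase, had scaled log2 levels of 5.64 (2D) and 5.69 (3D) in iHep-1 and 4.68 (2D) and 6.48 (3D) in iHep-2. As for Ugp2, both cultures of iHep-1 were nearly equal and the arrays of iHep-2 lay on either side of them. The level in 3D was 3.47-fold that in 2D for iHep-2 and 1.04-fold for iHep-1. The mean difference was 0.92 (SE 0.51, limma, n = 2 per culture, adjusted p = 0.710). Without the 2D array of iHep-2 it was 0.45, without the 3D array of iHep-2 0.53, without the 2D array of iHep-1 1.40, and with spike-in scaling -0.18.

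Pygb, the phosphorylase named for brain and found in many tissues, had levels of 2.87 (2D) and 2.54 (3D) in iHep-1 and 2.21 (2D) and 2.30 (3D) in iHep-2. Both iHep-1 arrays lay above both iHep-2 arrays, and the cultures overlapped. Over both experiments the mean difference came to -0.12 (SE 0.33, limma, n = 2 per culture, adjusted p = 0.934). It was 0.21 without the 2D array of iHep-1 and -0.46 without that of iHep-2. Pygm, the muscle phosphorylase, was not well above background on any array and was not tested.

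Phka2 encodes the liver form of the regulatory alpha subunit of phosphorylase kinase. It had levels of 1.73 (2D) and 2.17 (3D) in iHep-1 and 1.56 (2D) and 2.05 (3D) in iHep-2. Both 3D arrays were above both 2D arrays by a like amount, 0.44 in iHep-1 and 0.49 in iHep-2. The mean difference was 0.46 (SE 0.22, limma, n = 2 per culture, adjusted p = 0.698) and was -0.64 with spike-in scaling.

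The phosphatase targeting subunits bring protein phosphatase 1 to glycogen. Ppp1r3c, also called PTG and made in many tissues, had scaled log2 levels of -1.54 (2D) and -0.38 (3D) in iHep-1 and -2.49 (2D) and -1.20 (3D) in iHep-2. In each experiment the 3D array was the higher one, and even the lower 3D array lay above both 2D arrays. It was 2.23-fold higher in 3D in iHep-1 and 2.44-fold in iHep-2, the most alike pair of differences after that of Phka2. The difference averaged 1.22 (SE 0.51, limma, n = 2 per culture, adjusted p = 0.684, or SE 0.22 and adjusted p = 0.289 with experiment as a block). It was 0.75 without the 2D array of iHep-2, 0.81 without the 3D array of iHep-1, and 0.12 with spike-in scaling.

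Ppp1r3b, the targeting subunit most abundant in liver, stood at -1.30 (2D) and -1.76 (3D) in iHep-1 and -3.68 (2D) and -2.27 (3D) in iHep-2. The 2D array of iHep-1 was the highest and that of iHep-2 the lowest, with both 3D arrays between them, so the cultures overlapped. The gene was 1.38-fold higher in 2D in iHep-1 and 2.65-fold higher in 3D in iHep-2. The mean of both differences was 0.47 (SE 0.93, limma, n = 2 per culture, adjusted p = 0.911), -0.72 without the 2D array of iHep-2, 1.66 without that of iHep-1, and -0.63 with spike-in scaling.

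**Figure D2:**
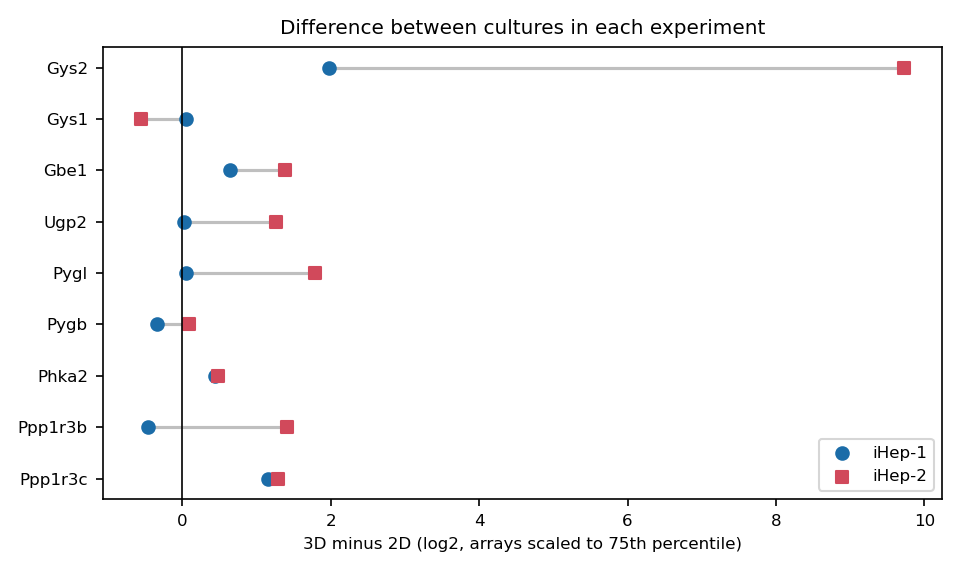
Difference between 3D and 2D (x axis, log2, arrays scaled to the 75th percentile) of each glycogen gene in iHep-1 (circles) and iHep-2 (squares), with a grey line joining both. Phka2 and Ppp1r3c had nearly equal differences in both experiments, while Gys2 ranged from 1.98 to 9.72. With spike-in scaling, which moved the median difference of all genes to -1.08, only Gys2 was higher in both experiments.

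For 6 of the 9 genes, iHep-2 gave the larger difference between cultures with the same sign as in iHep-1, against 43.7% of all genes. This was not tested, since each experiment had 1 array per culture. In 2D, iHep-2 minus iHep-1 had a median of -0.95 over the 9 genes, and in 3D it was 0.11, against -0.05 and 0.00 over all genes. On the 2D arrays, Ppp1r3b was 5.21-fold, Ugp2 2.04-fold and Pygl 1.94-fold higher in iHep-1. In limma, 54 of the 16451 genes differed between experiments at an adjusted p of 0.05 (0.328%), none of the 9 among them, with adjusted p between 0.439 and 0.985; leaving out any 1 array left 0 such genes. Culture as a block gave 143 genes higher and 162 lower in iHep-2, again none of the 9. Compared within each culture, iHep-2 was higher in both cultures for 1 of the 9 genes (30% of all genes) and lower in both for 4 (33.5%), with 0 at least 2-fold higher (5.12%) and 0 at least 2-fold lower (5.74%) in both. In Gys1 both iHep-2 arrays lay above both arrays of iHep-1, against 19.1% of all genes. In 2 of 9 genes, Pygb and Ppp1r3b, they lay below, against 22.6%.

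Further probes of the same genes gave a check on single probes, since 5 genes had more than 1 probe well above background on all 4 arrays. In iHep-2, all probes of a gene had the same sign in 5 of 5 genes, and in iHep-1 in 4 of 5. The exception was Ugp2, whose other probe differed by -0.29 in iHep-1 and 0.78 in iHep-2. Of the 15 probes well above background on all arrays, 11 were higher in 3D within iHep-1, 14 within iHep-2 and 10 within each. The share of all probes on the arrays was not worked out, so these counts have no baseline. Because 5 genes gave more than 1 of these probes, the probes are not independent. Spike-in scaling shifts every difference by -1.68 in iHep-1 and -0.53 in iHep-2, so fewer probes would be higher in 3D with it.

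The size of a difference depended on the probe. The 2 probes of Ppp1r3c gave 1.16 and 0.92 in iHep-1 and 1.29 and 1.16 in iHep-2, which were close. The other probes of Phka2 gave 0.01 and 0.81 in iHep-1 and 0.79 and 1.82 in iHep-2, and a further one was not well above background on any array. A second Pygl probe, with signals of 17.5 to 24.0 units, differed by 0.22 in iHep-1 and 0.48 in iHep-2, less than the 1.79 of the probe used. The second Pygb probe gave -0.47 and 0.05, with the same signs as the first.

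**Figure D3:**
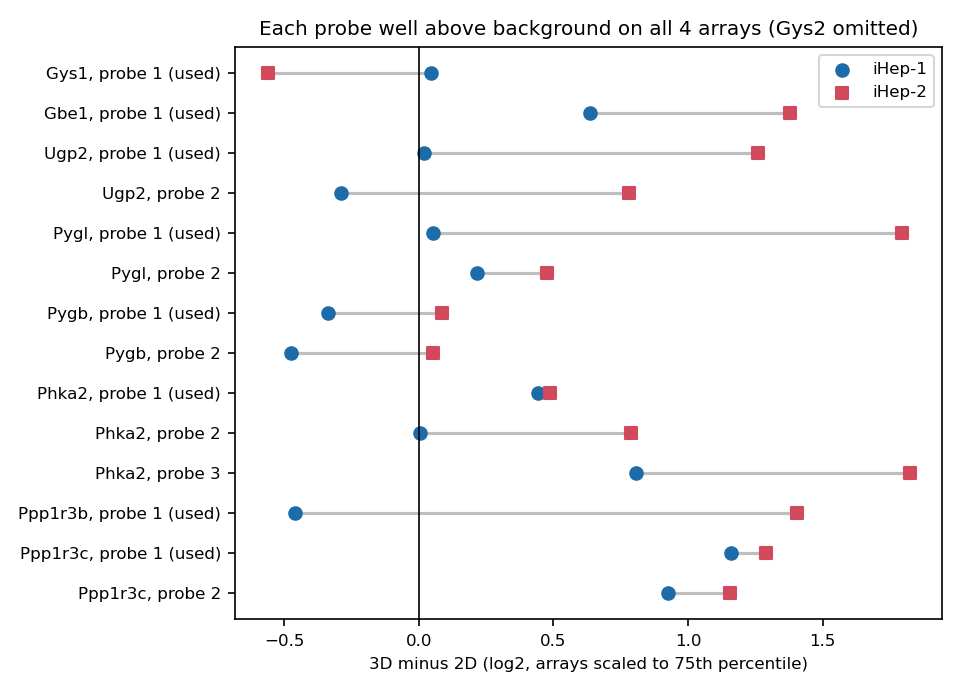
Difference between 3D and 2D (x axis, log2, arrays scaled to the 75th percentile) of each probe that was well above background on all 4 arrays, in iHep-1 (circles) and iHep-2 (squares); Gys2, with 1 probe, is left out to keep the scale readable. Except for 1 Gys1 probe, every probe shown was higher in 3D in iHep-2, and Ppp1r3c probes were higher in both experiments. The share of all probes was not worked out, and probes of the same gene are not independent. Spike-in scaling lowered every difference by 1.68 in iHep-1 and by 0.53 in iHep-2.

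Other genes of the pathway did not share one direction, and none of them passed limma for culture at the 75th percentile scaling (adjusted p of 0.684 or more). Of 6 other enzymes, 5 were tested, 2 higher (33.3% of all genes) and 2 lower (32.8%) in 3D in both experiments. Pgm1, which interconverts glucose 1-phosphate and glucose 6-phosphate, was higher by 0.17 in iHep-1 and 1.23 in iHep-2, and Pgm2 by 0.56 and 0.05. Both means were lower in 3D with spike-in scaling. Glycogenin, Gyg, which primes a new particle, differed by -0.50 and -0.87, and the lysosomal glucosidase Gaa by -0.47 and -0.41.

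Of 17 other regulators, 12 were tested, 3 higher (33.3% of all genes) and 8 lower (32.8%) in both experiments. The starch-binding protein Stbd1, which tethers glycogen to membranes, differed by -0.50 in iHep-1 and -1.28 in iHep-2 by the probe used. Its other probes differed by 0.79 and 0.62 in iHep-1 and by 0.0057 and -0.024 in iHep-2, and the mean over probes was -0.065. Phka1, the muscle form of the subunit that Phka2 encodes, differed by -0.22 and -0.34, and Phkb, the beta subunit, by 0.01 and 0.06. Gsk3a, a kinase that inactivates glycogen synthase, differed by 0.31 and 0.08, and Gsk3a and Phkb were lower in 3D with spike-in scaling. The targeting subunit Ppp1r3f differed by -0.68 in iHep-1 and was at least 2.21-fold lower in 3D in iHep-2, where it was not well above background in 3D. Another targeting subunit, Ppp1r3g, was well above background in iHep-1 only and is counted as higher on unmeasured values in iHep-2. It was at least 6.38-fold higher in iHep-1 than in iHep-2. It passed limma between experiments (adjusted p = 0.0428), but both iHep-2 arrays were dim, so that p rests on unmeasured values. Folds given as at least rest on the lowest signal well above background where the dim probe lay below it.

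Genes that supply or release glucose 6-phosphate included the largest differences after Gys2 among the pathway genes listed. Of 9, 8 were tested; 5 of these were higher in both experiments (33.3% of all genes), 3 of them by 2-fold or more (4.26%), and 3 were lower (32.8%). Their median differences were 0.68 in iHep-1 and 2.03 in iHep-2. G6pc, the glucose 6-phosphatase of liver that makes free glucose, had levels of 0.98 (2D) and 2.50 (3D) in iHep-1 and -4.57 (2D) and 2.18 (3D) in iHep-2. As for Gys2, its 2D array of iHep-2 was far below the other 3.

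The glucose transporter of liver, Slc2a2, was not well above background in either culture of iHep-1, and its iHep-2 signals were 64.7 units (2D) and 966 units (3D). It is counted as higher in both experiments, and by 2-fold or more, on unmeasured values in iHep-1, where its second probe differed by -0.55. Gckr differed by 1.13 in iHep-1 and 7.94 in iHep-2, and its 3D array of iHep-2 stood far above the other 3. With spike-in scaling its mean difference was 3.44 (limma, adjusted p = 0.0293, with the same pooled spread as for Gys2). Hk2, a hexokinase of many nonhepatic tissues, differed by -0.12 and -1.66, and the ubiquitous phosphatase G6pc3 by -0.03 and -0.13. Slc2a1, a widely made glucose transporter, differed by -0.01 and -0.44.

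Of 12 genes of hormone signalling to glycogen, 11 were tested, 2 higher (33.3% of all genes), 5 lower (32.8%) and 4 in opposite directions (33.8%). The glucagon receptor Gcgr was higher in 3D by 2.01 in iHep-1 and 2.78 in iHep-2, and the alpha-1B adrenergic receptor Adra1b by 1.96 and 1.56. Both receptors signal glycogen breakdown in hepatocytes. The insulin receptor Insr differed by -0.47 and -0.17 (its other probe by -0.58 and 0.47), its substrate Irs1 by -0.21 and -0.58, and Prkar1a, a regulatory subunit of protein kinase A, by -0.26 and -0.56.

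**Figure D4:**
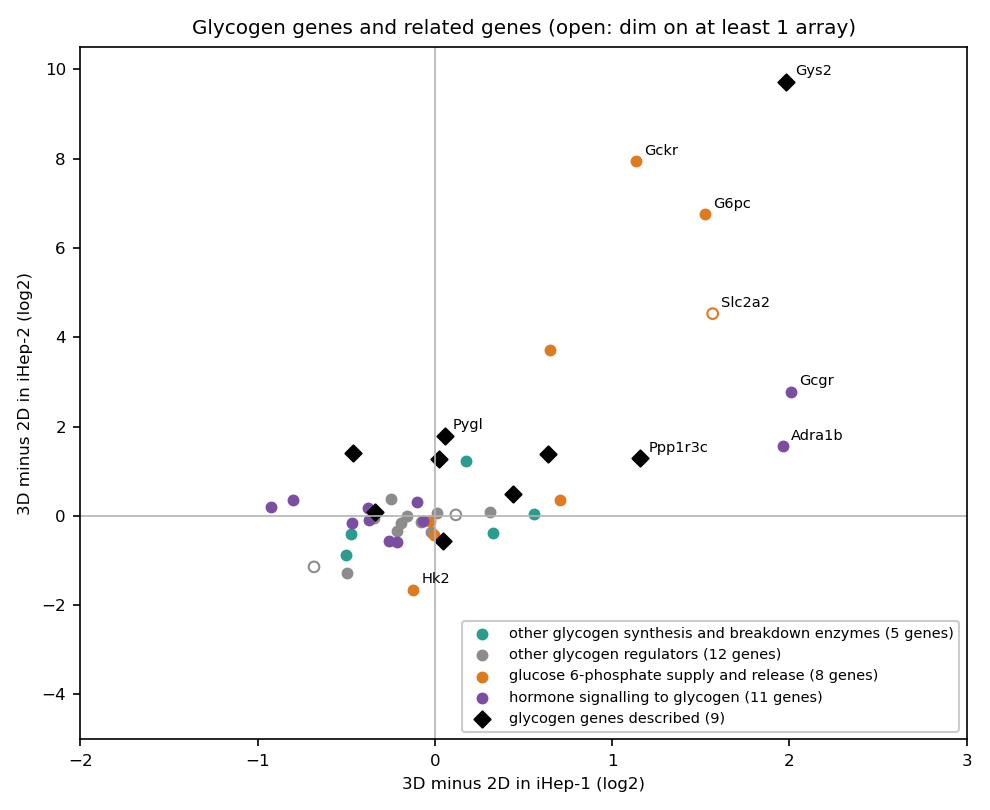
Difference between 3D and 2D (log2, arrays scaled to the 75th percentile) in iHep-1 (x axis) against iHep-2 (y axis), 1 point per gene, with black diamonds for the 9 glycogen genes and circles for 4 lists of related genes; open circles were not well above background on at least 1 array. Gys2 lies in the upper right, beyond every gene of glucose 6-phosphate supply and release on both axes. Most other genes lie within 2 log2 units of 0, and spike-in scaling shifts all points by -1.68 along x and -0.53 along y.

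The genes whose pattern over the 4 arrays was most like that of a glycogen gene were found among 14570 genes by Euclidean distance between log2 levels centred per gene. For Gys2 they were G6pc at 2.17, Slc27a5, a bile acid ligase of liver, at 2.51, and Sec14l4 at 2.62, so that no gene was close. For Pygl they were A930038B10Rik at 0.0813, the plasma protein haptoglobin, Hp, at 0.169, and Cd55 at 0.173, with 13 genes within 0.25. For Ppp1r3c they were Abcc3, an export pump for conjugates, at 0.152, BB009967 at 0.160, and Pgd, an enzyme of the pentose phosphate pathway, at 0.227, with 5 genes within 0.25. With 4 arrays, these distances describe the arrays, and the neighbours of Pygl and Ppp1r3c changed with the processing.

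Promoters of 3 genes that were higher in 3D in both experiments at the 75th percentile scaling are shown, because their iHep-2 differences, 1.29 to 1.79, were alike in size. Ugp2, at 1.26 in iHep-2, has a pair of windows and is not printed. Each is the 250 bases before the start in RefSeq, build GRCm38.p6, with letters that match a searched motif in capitals. Of the 9 genes, 7 had an entry, with 8 windows in all.
Ppp1r3c, chr19:36736605-36736854, minus strand: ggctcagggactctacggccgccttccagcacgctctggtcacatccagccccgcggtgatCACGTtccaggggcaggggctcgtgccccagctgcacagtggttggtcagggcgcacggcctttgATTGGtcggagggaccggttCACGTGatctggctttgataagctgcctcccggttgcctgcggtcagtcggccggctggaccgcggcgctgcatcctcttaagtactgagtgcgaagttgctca
Pygl, chr12:70227684-70227933, minus strand: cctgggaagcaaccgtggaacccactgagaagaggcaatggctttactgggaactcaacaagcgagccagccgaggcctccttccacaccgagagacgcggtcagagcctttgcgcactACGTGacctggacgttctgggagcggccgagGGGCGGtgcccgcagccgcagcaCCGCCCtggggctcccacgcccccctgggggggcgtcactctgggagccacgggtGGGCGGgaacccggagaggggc
Gbe1, chr16:70313699-70313948, plus strand: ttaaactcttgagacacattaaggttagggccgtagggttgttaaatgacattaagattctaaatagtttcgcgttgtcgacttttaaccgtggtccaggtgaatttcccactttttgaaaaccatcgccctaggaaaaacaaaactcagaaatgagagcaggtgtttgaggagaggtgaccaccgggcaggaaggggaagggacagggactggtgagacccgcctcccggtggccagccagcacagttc
The motifs, searched on both strands, were TATAAA (12.4% of 32851 promoters), CCAAT (33.8%), the E-box CACGTG (6.02%), the hypoxia-factor core ACGTG (16.6%), TGACGTCA (1.55%), TGTTTAC (3.17%), an HNF1 motif (0.0609%) and the GC box GGGCGG (32.7%). CACGTG contains ACGTG on both strands. The Ppp1r3c window held the E-box at -104 from the start, ACGTG also at -189, and CCAAT at -124. The Pygl window held ACGTG at -131 and GC boxes at -100, -77 and -22, and the Gbe1 window held none of the 8 motifs. A match is a description of the letters and not a site of binding.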

How the data were processed

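Per the labels' protocols, RNA came from an RNeasy Micro kit, and a Quick Amp kit labelled it with Cy3; it was hybridised to 1-colour Agilent arrays of design 014868 on 1 slide with 1 scan, per the file headers. The deposited files hold linear intensity values from Agilent Feature Extraction (version 9.5.1.1 per the submitters' processing notes, 10.7.1.1 per the file headers, which was not settled). Log2 of the processed signal was taken, minus each array's 75th percentile, which was 399 to 617 units. Outlier spots (72 to 85 per array) were left out; none was saturated. Probes were kept when at least 2 of 4 arrays had them well above background, and a gene was read by its probe with the highest mean. Of 41174 probes, 24844 were named through an accession and 6045 through a current and 1810 through an older symbol in a RefSeq table, and 8475 kept the files' name.

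The groups were compared with limma 3.58.1 in R 4.3.3 (lmFit, eBayes, two-sided, Benjamini-Hochberg over 16451 genes, threshold 0.05), checked on simulated data. Residual degrees of freedom were 2 and prior ones 1.58, but infinite for culture with spike-in scaling. With 2 arrays per group, their number limits the precision. The replicate number is the experiment, per the design text, and pairs the arrays (deviations from group means correlated with r = 0.66). The authors' series table, also deposited as intensity values (column medians 26.3 in iHep-1 and 22.6 in iHep-2; no source used here gives its normalization), was an alternative, as were other scalings, filters and arrays left out. Beyond the 9 genes, text names up to 3 genes per direction of each of 4 lists, by the smaller of both differences, and the 3 nearest genes in pattern of Gys2, Pygl and Ppp1r3c; genes and lists were chosen with earlier results of these data known. Some genes are not reported here and were left out of these lists.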

Additional observations from a re-analysis of the deposited data

Results flagged for a closer look

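For 3 glycogen genes the 3D minus 2D difference had opposite signs in the experiments; with 1 array per culture in each experiment this was not tested. The iHep-2 difference minus the iHep-1 difference was -0.61 log2 units for Gys1 (0.05 in iHep-1, -0.56 in iHep-2), 0.42 for Pygb (-0.34 and 0.09) and 1.87 for Ppp1r3b (-0.46 and 1.40).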

How the results depend on the processing

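Differences are 3D minus 2D, log2. Spike-in scaling changed most: 76 genes were then higher and 215 lower in 3D (with 1 pooled spread), and 201 higher and 200 lower in iHep-2. Of the 9 genes, 1 was then higher in both experiments, 0 by 2-fold or more; their median turned to -0.46, and the difference was -0.094 for Gbe1, -0.64 for Phka2, -0.63 for Ppp1r3b, -0.18 for Pygl, -0.46 for Ugp2, -0.91 for Gsk3a, -0.40 for Pgm1, -0.80 for Pgm2, -1.07 for Phkb and -1.03 for Ppp1r3g. With normexp, 1 of the 9 was at least 2-fold higher in both, Phka1 was at 0.11, and 42 genes were higher and 61 lower in iHep-2. These counts were 45 and 81 with quantile normalization, 43 and 93 with the authors' table, 2 and 1 when all 4 arrays had to be well above background, then 0 and 0 without any 1 array. Ppp1r3g was at -0.10 with quantile normalization and -0.094 with the authors' table. With 1 array left out, signs turned within these ranges: Gys1 -0.62 to 0.10, Pygb -0.46 to 0.21, Ppp1r3b -0.72 to 1.66, G6pc3 -0.16 to 0.011, Insr -0.89 to 0.25, Irs1 -0.80 to 0.0095, Phka1 -0.65 to 0.094, Phkb -0.14 to 0.21, Ppp1r3g -1.72 to 1.85, Slc2a1 -0.54 to 0.094, Slc2a2 -0.88 to 6.97 and Stbd1 -2.12 to 0.34. Pairing the arrays by experiment (replicate block, 1 residual degree of freedom) called 0 genes for culture, 0 of the 9 among them (limma adjusted p 0.289 for Ppp1r3c to 0.827), and so changed no call there; culture as a block moved the experiment counts to 143 and 162. Where a setting turned a sign, the cause was not tested. The median of all genes was -1.08 with spike-in scaling and 0.20 with no filter on dim probes. For the counts of genes higher in both experiments, shares of all genes were not worked out in these other settings. Depth of signal limits Gys2, Slc2a2 and Ppp1r3g, which were near or below background on some arrays.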
